A study of Mus musculus with 4 samples.

Results

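The genes described here encode the inducible proteasome and the machinery that loads its peptides onto MHC class I molecules, measured in Lgr5-high intestinal stem cells that could or could not respond to type I interferon. They were chosen by name as 10 genes, namely the inducible proteasome subunits Psmb8, Psmb9 and Psmb10, the activator subunits Psme1 and Psme2, the transporter chains Tap1 and Tap2, tapasin (Tapbp), its relative Tapbpl and the peptidase Erap1. Of these, 9 were measured among 24866 genes tested, each by 1 probe, and Psme2 had no probe named here. Control mice carried the Lgr5-EGFP-Ires-CreERT2 knock-in (Lgr5ki), in which the stem cell gene Lgr5 drives a green reporter and an inducible recombinase. Knockout mice were Ifnar1-/-:Lgr5-EGFP-Ires-CreERT2, so they carried the same reporter and lacked a chain of the interferon alpha and beta receptor; the genotype names no restriction of that loss to the stem cells. Both groups were given poly(I:C), an artificial double-stranded RNA known to provoke interferon, by intraperitoneal injection of 2 mg/kg daily over 1 week, and Lgr5-high cells were then sorted by flow cytometry. The design therefore compares knockout with control under treatment; an untreated group is not analysed here, and the animals' age and sex are not given in the sources used here. Each group had 2 samples, each on its own array, and the replicate number was also the slide, so that each slide paired a control with the knockout of the same number.

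Cells cut proteins with the proteasome, a barrel whose cutting subunits can be exchanged. Interferon is known to replace the constitutive cutters Psmb5, Psmb6 and Psmb7 with Psmb8, Psmb9 and Psmb10, and to add a cap made of Psme1 and Psme2, which changes the peptides that are made. The Tap1 and Tap2 chains form the pump that carries those peptides into the endoplasmic reticulum, where tapasin holds the class I molecule next to the pump, Tapbpl edits the bound peptide and Erap1 trims peptides to length. The transactivator Nlrc5 switches on class I genes and several of these partners together.

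The genes Psmb9, Tap1, Psmb8 and Tap2 follow one another in that order on chromosome 17, inside the class II part of the MHC. Psmb9 and Tap1 are read away from each other, from starts that enclose 225 bases. That stretch is shown because the 2 genes that it separates differed unequally between the groups; capitals mark a GC box (GGGCGG on either strand), given by RefSeq for build GRCm38.p6 on the plus strand at chr17:34187331-34187555.
Psmb9 to Tap1: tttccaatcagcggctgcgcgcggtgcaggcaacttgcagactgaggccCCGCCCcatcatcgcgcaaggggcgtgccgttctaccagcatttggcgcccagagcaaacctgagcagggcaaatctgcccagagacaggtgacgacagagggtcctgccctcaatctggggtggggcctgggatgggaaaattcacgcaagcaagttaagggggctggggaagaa

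Interferon acts on genes through 2 well-known letter patterns, the interferon-stimulated response element, searched as TTTCNNTTTC, and the gamma-activated site, searched as TTCNNNGAA. Both were searched on both strands, with the GC box and the NF-kB pattern, in RefSeq windows of 300 bases that run from 250 before to 50 after each start. Windows were held for 8 of the 10 genes; Tap2 and Tapbpl had none and were not searched. The response element was in the windows of Erap1 and Psme1, and in 3.44% of all 32851 windows. The gamma-activated site was in the window of Psmb8, and in 8.30% of all windows. The GC box was in those of Psmb9, Psme1, Psme2, Tap1, Tapbp and Erap1 (35.7% of all windows), Psmb9 and Tap1 sharing 1 box, and the NF-kB pattern was in none of the 8 (4.51% of all windows). The sites are shown because the genes that hold the response element, Erap1 and Psme1, differed less between the groups than Tap1 and Psmb8. The windows of Tap1 and Psmb8 held no such match. Those of Psmb10, Tapbp and Psmb9 held none either, and these genes differed by 0.05, -0.18 and -0.22. Erap1 and Psme1 differed by -0.05 and -0.16, so genes with and without a match overlapped in their differences. A match is a run of letters, not a tested site. The first 2 lines give the response element in capitals, on the plus strand at chr13:74639839-74639868 and chr14:55578493-55578522, and the last line the gamma-activated site, on the plus strand at chr17:34197945-34198194, which ends at the base before the Psmb8 start.
Erap1: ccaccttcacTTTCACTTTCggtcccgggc
Psme1: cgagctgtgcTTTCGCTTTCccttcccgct
Psmb8: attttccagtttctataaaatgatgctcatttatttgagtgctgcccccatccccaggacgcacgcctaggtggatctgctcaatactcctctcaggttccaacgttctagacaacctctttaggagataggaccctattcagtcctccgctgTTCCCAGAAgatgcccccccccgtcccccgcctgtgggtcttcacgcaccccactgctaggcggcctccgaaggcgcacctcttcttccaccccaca

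Well above background were 63.3% to 67.7% of the spots that were not controls, none was saturated, and with 4 arrays their number limits the precision. Ifnar1 itself differed by -1.73 on the log2 scale, by -1.55 within slide 1 and -1.91 within slide 2 (adjusted p = 0.0496 by limma with the slide as a block, 0.478 without, and not passing with the block but no intensity trend). The sort marker Lgr5 was well above background on all 4 arrays and differed by 0.20. Slides often differed more than genotypes: for 6 of the 9 genes the shift from slide 1 to slide 2, averaged over both groups, was larger than the difference between the groups. Each gene is therefore given by its value on every array and by its difference within each slide, as well as by limma without and with the slide as a block. Levels are log2 signals from which the 75th percentile of the array was subtracted, and differences are knockout minus control on the log2 scale. Separate animals are not named in the labels, so p-values reflect only how far these samples spread, which may be technical. An exact permutation test of 2 against 2 samples cannot give a two-sided p below 0.333, so none is reported for single genes.

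Loss of the receptor went with lower signal for the peptide pump and for 1 inducible proteasome subunit, while the other 6 genes lay within 0.25 of no difference. That band does not set the 6 apart from other genes. Psmb9, the lowest of them at -0.22, had 18.1% of all genes below it. The constitutive subunit Psmb5, at 0.26, had 83.3% below it, so most genes tested lay between these values. Nor were all 6 flat, as Psmb9 had a limma interval from -0.41 to -0.04 with the slide as a block. Tap1 was 2.37-fold lower in the knockout, Tap2 1.68-fold lower and Psmb8 1.45-fold lower, and for these 3 both knockout arrays lay below both control arrays. That separation was seen in 3 of the 9 genes, against 11.5% of all genes tested, and the reverse separation in 0 of 9, against 14.5%. Lower values on both slides were seen for 6 of the 9 genes (27.3% of all genes) and higher values on both slides for 1, Psmb10 (33.9%). Their differences had a median of -0.18, with -0.28 for slide 1 and -0.18 for slide 2, beside a median of 0.02 over all genes. Markers of Paneth cells, the secretory neighbours of the stem cells, were lower in the knockout too, with summed signal of 121 to 197 against 471 to 605; their part in these differences was not tested. In bulk samples, fewer cells of a type and less RNA per cell cannot be told apart.

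None of the 9 genes passed limma after Benjamini-Hochberg adjustment over all genes. With the slide as a block, 0 were lower, against 0.33% of all genes, and 0 were higher, against 0.0322%, with adjusted p from 0.123 to 0.958. Without the block, 0 were lower or higher, as were 0% of all genes. At an unadjusted p under 0.05, 4 of the 9 genes were lower with the block (4.93% of all genes) and 2 without it (1.72% of all genes). Those 4 were Psmb8, Psmb9, Tap1 and Tap2, the 4 neighbours on chromosome 17.

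**Figure D1:**
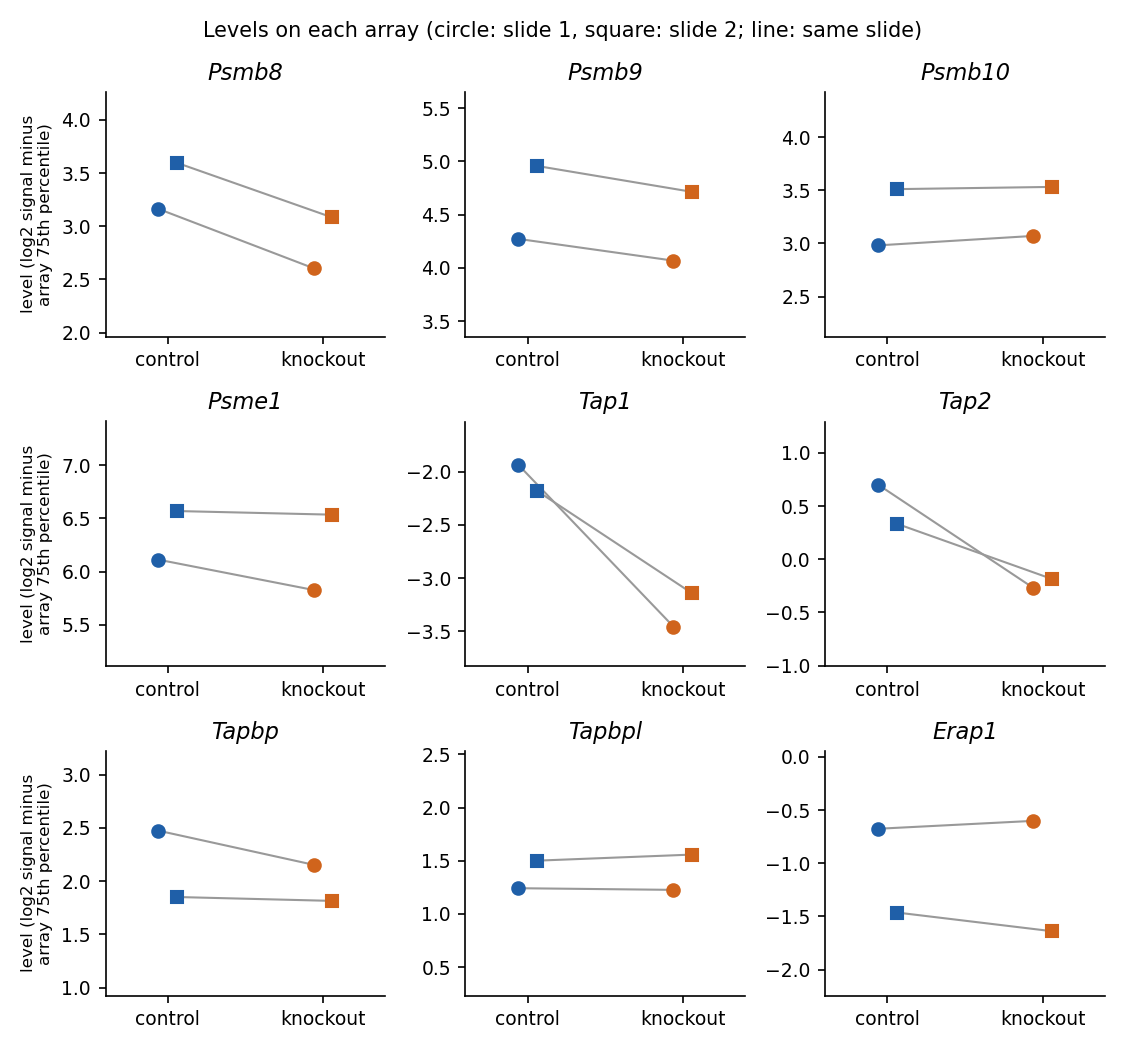
Level of each of the 9 measured genes on each array (log2 signal minus the array's 75th percentile; each panel spans the same 2.3 log2 units), with circles for slide 1, squares for slide 2 and a line joining the 2 samples of a slide. Both lines slope down for Tap1, Tap2 and Psmb8 by more than the slides differ on average, while for Psmb10, Tapbpl and Erap1 the slides lie apart and the lines are nearly level.

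Among the cutting subunits, Psmb8, which replaces Psmb5 and gives the inducible proteasome its altered chymotrypsin-like cut, was at 3.16 in control 1 and 3.60 in control 2, and at 2.61 in knockout 1 and 3.08 in knockout 2. Both knockout arrays were below both control arrays, although knockout 2 lay only just under control 1. The difference was -0.56 on slide 1 and -0.51 on slide 2, nearly equal. The mean difference of -0.54 had a standard error of 0.09 and a 95% interval from -0.75 to -0.32 with the slide block (limma, adjusted p = 0.123), and from -1.18 to 0.11 without it. The difference was -0.32 without control 2 and -0.30 without knockout 1, so it moved by more than 1.5 times with either of these arrays left out.

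Psmb9, which replaces Psmb6, was at 4.27 and 4.96 in controls 1 and 2 and at 4.07 and 4.71 in knockouts 1 and 2. The groups overlapped, the slide 2 samples of both groups lying above the slide 1 samples. Its difference was -0.20 on slide 1 and -0.24 on slide 2 (limma blocked by slide, 95% interval from -0.41 to -0.04, adjusted p = 0.363). Psmb10, which replaces Psmb7, was at 2.98 and 3.51 in the controls and at 3.07 and 3.53 in the knockouts. Again the slide 2 samples were the higher ones, and the groups overlapped. The difference was 0.09 on slide 1 and 0.02 on slide 2, with a 95% interval from -0.16 to 0.27 with the slide block (adjusted p = 0.823), an interval that leaves out a difference of the size seen for Psmb8; without the block it ran from -0.62 to 0.73.

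The constitutive partners of these subunits had higher values in the knockout, opposite in sign to Psmb8 and Psmb9 and the same in sign as Psmb10. Psmb5 differed by 0.26, Psmb7 by 0.18 and Psmb6 by 0.12, each higher in the knockout on both slides and none passing (limma blocked by slide, adjusted p of 0.365, 0.421 and 0.588). Set against its partner, Psmb8 minus Psmb5 had a contrast of differences of -0.73 within slide 1 and -0.85 within slide 2, with a mean of -0.79. The contrast of Psmb9 with Psmb6 was -0.30 on slide 1 and -0.39 on slide 2, and that of Psmb10 with Psmb7 was -0.06 and -0.18. All 3 pairs thus had the same sign on both slides, with the widest gap for Psmb8 and the narrowest for Psmb10; these contrasts come from 2 slides and have no test.

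The cap subunit Psme1, which opens the proteasome's gate together with Psme2, was at 6.11 and 6.57 in the controls and at 5.83 and 6.53 in the knockouts. The control of slide 1 lay below the knockout of slide 2, so the groups overlapped. The difference was -0.28 on slide 1 and -0.03 on slide 2 (limma blocked by slide, 95% interval from -0.37 to 0.05, adjusted p = 0.493). The Psme1 probe was printed as 10 spots on each array, of which 9 or 10 were used, and their standard deviation was 0.05 to 0.07. The gap of slide 1 was therefore wider than the scatter of spots within an array and that of slide 2 was not, while the shift between the slides, 0.58 on average, exceeded both. Psme3, which forms the corresponding cap of nuclear proteasomes and is not part of the inducible set, differed by -0.12 (-0.15 on slide 1 and -0.09 on slide 2).

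Tap1, the chain with the widest difference, was at -1.93 in control 1 and -2.18 in control 2, and at -3.46 in knockout 1 and -3.14 in knockout 2. The groups were clearly apart, and the samples of a group lay closer to each other than to the other group. The difference was -1.52 on slide 1 and -0.96 on slide 2, lower than that of all but 1.35% of the genes tested. Its mean of -1.24 had a standard error of 0.28 and a 95% interval from -1.96 to -0.53 with the slide block (limma, adjusted p = 0.253), and one from -2.09 to -0.40 without it.

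The Tap1 probe also had 10 spots on each array. In control 1 the 9 spots used spanned -2.10 to -1.71 and in control 2 the 9 used spanned -2.47 to -2.00. In knockout 1 the 10 spots spanned -4.17 to -3.06 and in knockout 2 they spanned -3.40 to -2.74. No knockout spot reached a control spot, so the difference was larger than the scatter of spots within an array, which is technical. The probe was dim: its mean signal was 63.8 and 54.8 in the controls and 22.0 and 28.9 in the knockouts, where the lowest signal counted as well above background was 12.3 and 9.96, and 1 of the 10 spots in knockout 1 was not well above background. With normexp background correction, which adds an offset of 50 to every signal, the difference was -0.47. Tap1 was then no longer the gene with the widest difference, Tap2 being at -0.62 and Psmb8 at -0.50.

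**Figure D2:**
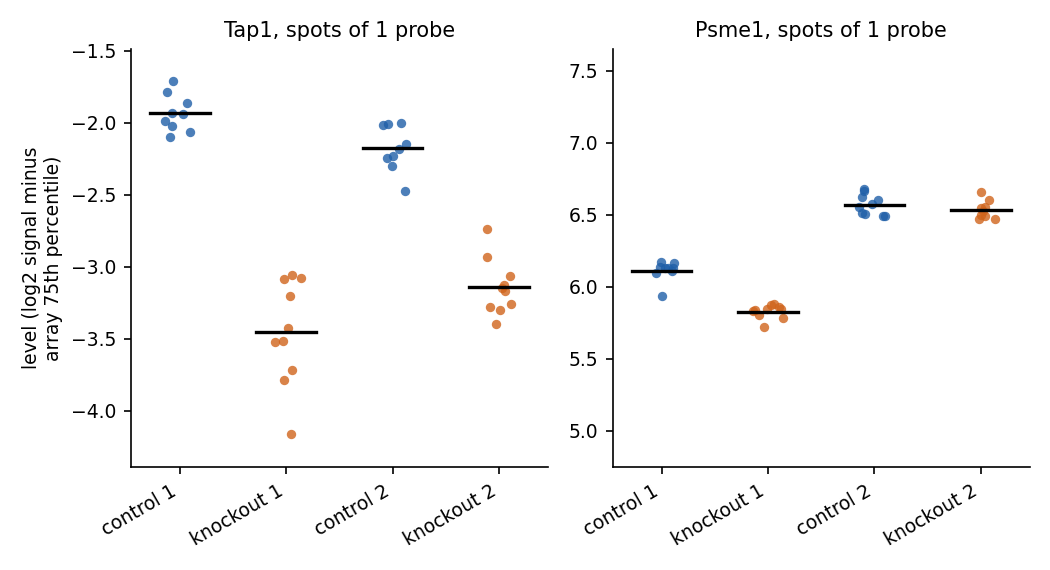
Level of every spot used of the Tap1 probe (left) and the Psme1 probe (right) on each array, in log2 signal minus the array's 75th percentile, with a bar at the mean and both panels spanning 2.9 log2 units. The Tap1 spots of the knockouts all lie below those of the controls, whereas the Psme1 spots separate on slide 1 and overlap on slide 2.

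Tap2, the partner chain of the pump, was at 0.70 and 0.33 in the controls and at -0.27 and -0.19 in the knockouts. The groups did not overlap, and the knockout samples lay close together. The difference was -0.97 on slide 1 and -0.52 on slide 2, lower than that of all but 3.57% of genes. Its mean of -0.75 had a standard error of 0.16 and a 95% interval from -1.15 to -0.34 with the slide block (limma, adjusted p = 0.237), and one from -1.33 to -0.16 without it. Both chains of the pump thus shared the direction and the larger gap on slide 1.

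Along chromosome 17 the neighbours differed unequally, by -0.22 for Psmb9, -1.24 for Tap1, -0.54 for Psmb8 and -0.75 for Tap2. Tap1 and Psmb9, which start from the 225 bases shown above, had contrasts of -1.32 on slide 1 and -0.72 on slide 2, so the change of Tap1 was the lower of the 2 on both slides. This contrast also has no test, and with normexp background correction the 2 genes lay closer together, at -0.47 for Tap1 and -0.19 for Psmb9.

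Tapasin (Tapbp), the bridge between the pump and the class I molecule, was at 2.47 and 1.85 in the controls and at 2.15 and 1.81 in the knockouts. The knockout of slide 1 lay above the control of slide 2, so the groups overlapped. The difference was -0.32 on slide 1 and -0.04 on slide 2 (limma blocked by slide, 95% interval from -0.47 to 0.11, adjusted p = 0.564). Its relative Tapbpl was at 1.24 and 1.50 in the controls and at 1.23 and 1.56 in the knockouts, almost the same on each slide. The difference was -0.02 on slide 1 and 0.06 on slide 2, with a 95% interval from -0.25 to 0.29 (adjusted p = 0.958).

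Erap1, the trimming peptidase, was at -0.68 and -1.46 in the controls and at -0.60 and -1.64 in the knockouts. The samples of slide 1 were the higher ones in both groups, and the direction turned between slides, with 0.07 on slide 1 and -0.18 on slide 2. The 95% interval ran from -0.49 to 0.39 with the slide block (limma, adjusted p = 0.931). The slides differed by -0.91 on average for Erap1, the widest such shift among the 9 genes. With the slide block, the interval of every other measured gene, Tap2 included, leaves out a difference as deep as that of Tap1 (-1.24). An adjusted p above the threshold does not show that the groups were alike.

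**Figure D3:**
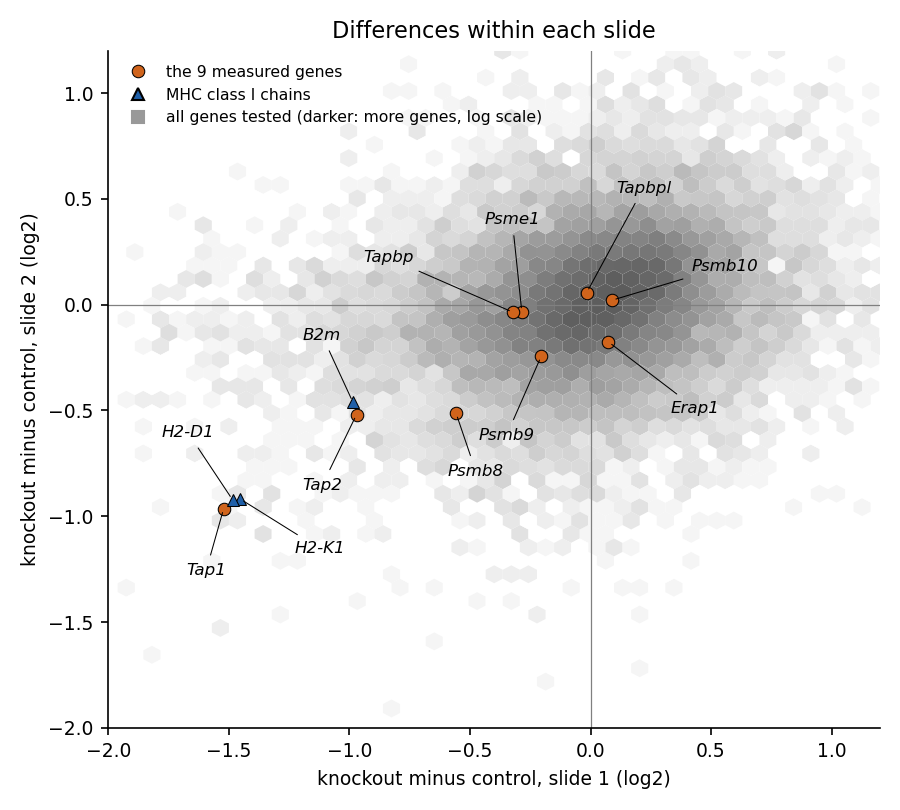
Knockout minus control on slide 1 (x axis) against slide 2 (y axis), both log2, for all genes tested as grey hexagons (907 genes lie outside the axes), the 9 measured genes as orange circles and 3 class I chains as blue triangles. Tap1 lies with H2-K1 and H2-D1, and Tap2 with B2m, away from the dense centre where Psmb10, Tapbpl and Erap1 are found.

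The class I molecules that receive the peptides had lower values as well, without passing. H2-K1 and H2-D1, the heavy chains, differed by -1.19 and -1.20 (limma blocked by slide, adjusted p of 0.0529 and 0.0561), and B2m, the light chain, by -0.72, with -0.99 within slide 1 and -0.46 within slide 2 (adjusted p = 0.176). Of the other helpers of class I folding, Calr differed by -0.20, Pdia3 by -0.18 and Canx by 0.04. Of these 6 genes 0 passed in either direction, 4 had both knockout arrays below both controls (11.5% of all genes), and the median was -0.46.

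Among 8 transcription factors known to act on the pathway, 0 passed in either direction and the median was -0.41. Nlrc5 was at 0.46 and -0.36 in the controls and at -3.66 and -2.92 in the knockouts. The difference was -3.34, with -4.12 within slide 1 and -2.55 within slide 2 (adjusted p = 0.0561, limma with the slide as a block). Nlrc5 was dim in the knockouts, where the lowest level counted as well above background was -4.26 in knockout 1 and -4.74 in knockout 2. No value with normexp background correction is given for Nlrc5, so the size of its difference is uncertain. Stat2 differed by -1.15 and Irf9 by -0.92, both parts of the factor that binds the response element. Irf1, which is known to act on Psmb9 and Tap1, differed by -0.18, and Ciita, the class II transactivator, by 0.24.

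The remaining proteasome genes had small differences, more of them above 0 than below. The 11 subunits of the core that both kinds of proteasome share had differences from 0.01 (Psma2) to 0.31 (Psma5), with a median of 0.08, and 0 passed. The 18 genes of the regulatory particle, which recognises and unfolds tagged proteins, had a median of 0.04 and ran from -0.12 (Psmc2) to 0.56, the latter Psmd13 with 1.01 on slide 1 and 0.10 on slide 2, and 0 passed. Together with the 3 constitutive cutters, these 32 genes ran from -0.12 to 0.56, with a median of 0.07 beside 0.02 over all genes. On both slides 2 of the 32 were lower (27.3% of all genes) and 17 were higher (33.9% of all genes). Among 8 measured genes for other caps, an inhibitor and assembly factors, the median was 0.13 and 0 passed, with Psme3 lowest and Psmg2 highest at 0.35; Pomp, which helps the inducible core to assemble, differed by 0.07. Psmb11, the cutting subunit of the thymus, was not well above background on both arrays of either group.

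Other peptidases that can shorten class I peptides lay near no difference. The 7 genes had a median difference of -0.01, from -0.16 for Lap3, an aminopeptidase of the cytosol that interferon is known to raise, to 0.26 for Thop1, and 0 passed.

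**Figure D4:**
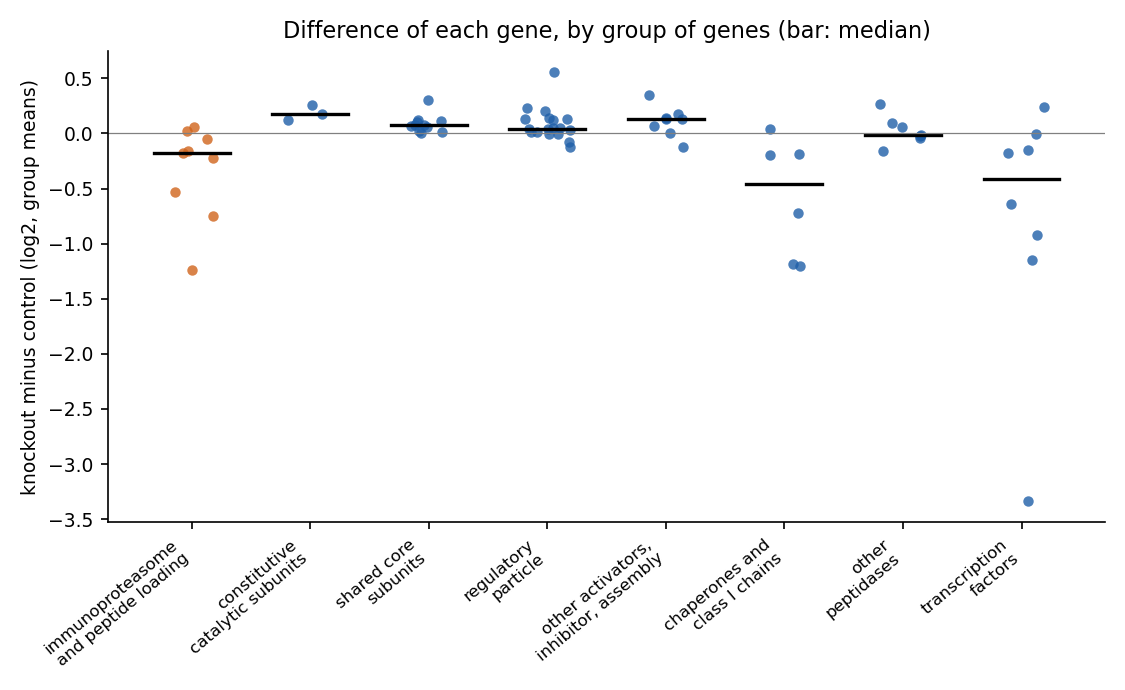
Knockout minus control (log2, difference of group means) for each gene, in columns by function, with the immunoproteasome and peptide loading genes in orange and a bar at each median. The orange points run from -1.24 to 0.05, the class I chains reach -1.20, Nlrc5 reaches -3.34, and the other proteasome columns lie between -0.12 and 0.56.

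Leukocytes hold the inducible proteasome constantly, so their markers were measured in the same arrays. Of 20 leukocyte markers, 1 had no probe named here and 5 were not well above background (Cd3d, Itgax, Laptm5, Coro1a and Cd52). Of the 14 tested, 0 passed in either direction, their median difference was 0.20, 6 were higher on both slides and 4 were lower on both slides. Their summed linear signal, relative to the 75th percentile, was 250.3 to 369 in the controls and 249 to 365 in the knockouts, but most of it came from 1 probe, that of Itgam, at levels of 7.69 and 8.36 in the controls. Ptprc, which defines leukocytes, was well above background on all 4 arrays, at -1.68 and -1.32 in the controls and -1.65 and -1.21 in the knockouts. The differences of the tested markers ran from -0.29 for Nkg7 to 1.06 for Gzma, and the part of leukocytes in the results was not tested.

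Of 10 Paneth cell markers, 8 were measured, all 8 had both knockout arrays below both controls (11.5% of all genes), and none was at or below background. Lyz1, Ang4, Clps, Defa3, Defa26 and Itln1, mostly antimicrobial proteins and secreted enzymes, fell with the slide as a block (limma, adjusted p from 0.00504 to 0.0496). Of all genes, 0.33% were called lower in that fit. The differences of the named markers ran from -3.04 for Clps to -1.63 for Itln1, and 0 passed without the block or with the block but no intensity trend. The other 2, Mmp7 and Nupr1, differed by -2.07 and -2.20 without passing (adjusted p of 0.0561 and 0.162). Of the 7 enteroendocrine markers tested, Tph1 not being well above background, 6 were lower on both slides (27.3% of all genes) and 0 passed (summed signal 8.14 to 12.2 in the controls, 4.43 to 7.14 in the knockouts). Of the 8 enterocyte markers, 6 were higher on both slides (33.9% of all genes) and 2 were lower (27.3% of all genes). None passed, and the summed signal was 45.5 to 53.9 in the controls and 65.7 to 69.5 in the knockouts. Lct, among those higher, was well above background on both knockout arrays but on only 1 control array. The 7 markers of Lgr5 stem cells that were tested differed by 0.09 in the median and summed to 114 to 129 in the controls and 118 to 130 in the knockouts, with 0 passing. On both slides 5 of the 7 were higher (33.9% of all genes) and 1 was lower (27.3% of all genes). Both knockout arrays lay above both controls for 4 of the 7 (14.5% of all genes). Goblet (8), tuft (5, Gfi1b not being well above background) and stromal or endothelial (3) markers had medians of -0.29, 0.08 and 0.37, with 0 passing; Pecam1, Cdh5, Col1a1, Pdgfra and Vim were not well above background.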

How the data were processed

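RNA from sorted cells was amplified and hybridised to 4 single-colour Agilent arrays, per the labels' protocols. Per the file headers, the deposited files hold background-subtracted spot intensity from Agilent Feature Extraction 12.0.3.1; the submitters' processing notes name 11.5.1.1. Signals were put on the log2 scale, each array's 75th percentile over non-control spots not marked as outliers was subtracted, and spots of a probe were averaged. Probes well above background on both arrays of a group were kept (35422), a gene being its brightest probe. RefSeq accessions, matched without versions to the GRCm38.p6 gene table, named 28331 of 55681 probes; the array annotation is mm9, so only the promoter windows carry coordinates. The test was limma (3.58.1, in R 4.3.3) with an intensity trend, without and with the slide as a block (2 and 1 residual degrees of freedom), adjusted by Benjamini-Hochberg at 0.05 over all genes. The slide pairs the samples: the control samples' difference between slides correlated with that of the knockout samples at r = 0.563 across genes, which are not independent replicates.

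The 10 genes and the lists were chosen with earlier results of these data known. Named genes are all members, fixed genes of interest, genes of the lists that passed with the block, and the lowest and highest of each pathway list (marker lists are given by medians and sums); Gzma and Nkg7, the highest and lowest leukocyte markers, Itgam, Mmp7, Nupr1, Stat2, Irf9, Calr, Pdia3 and Pomp were named after their values were seen. A gene that the rule names is not reported here. The script was tested on simulated data. Alternatives covered the block, the trend, scaling, normexp (on the median signal), the deposited series table of intensity (the scanner values times 1 constant per array), filters, the probe rule, outliers and each array left out.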

Additional observations from a re-analysis of the deposited data

How the results depend on the processing

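With the slide as a replicate block, which is also the pairing by replicate number, 0 of the 9 genes were called lower and 0 higher, as in the fit without it, and no direction changed. Of 13 alternatives that kept all arrays, 12 called 0 genes lower and all 13 called 0 higher; the exception was the replicate block with normexp background correction, chosen after seeing the data, which called 1 gene lower (Psmb8, -0.50, limma adjusted p = 0.0453, against 0.0788 to 1.00 under the other 12). Over those 13, the median difference ran from -0.22 to -0.17, and no gene changed direction. Leaving out 1 array at a time called 0 genes, moved the median to between -0.51 and -0.30, and kept the sign of Tap1 (-1.40 to -1.09), Tap2 (-0.93 to -0.56) and Psmb8 (-0.77 to -0.30). It turned the sign of the 6 others: Psmb9 ran from -0.57 to 0.12, Psmb10 from -0.21 to 0.32, Psme1 from -0.51 to 0.19, Tapbp from -0.49 to 0.13, Tapbpl from -0.15 to 0.19 and Erap1 from -0.57 to 0.47. Each such fit leaves a group with 1 sample, assumed to vary like the other group, and leaves the slides unbalanced. Over the whole table limma called 82 genes lower and 8 higher with the block and 0 without it (427 lower and 258 higher at an unadjusted p under 0.05), 219 and 123 with the block and normexp, 123 and 22 with the block and quantile scaling, and 0 without the intensity trend, where the block gave 1025 and 1036 at an unadjusted p under 0.05; leaving out an array gave 9 to 88 lower. Arrays limit Tap1 through its dim signal and all genes through their number.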
